A study of Mus musculus with 8 samples.

Results

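The T cell receptor alpha chain of tumour-infiltrating CD8 T cells is described here through the V and J segments that its genes were assembled from. The segments are all TRAV and TRAJ genes named in productive alpha contigs, that is, assembled transcripts with an intact reading frame. There were 132 of them, 89 TRAV and 43 TRAJ, out of 128 TRAV and 60 TRAJ genes annotated on chromosome 14 (GRCm38, GENCODE M21). They came from 26402 productive alpha contigs in 23043 cells, out of 65720 contigs in 24755 barcodes.

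An alpha chain gene is made in the thymus by joining a V segment to a J segment on the same chromosome. The first joins use V segments near the J cluster and J segments near the V cluster, and later joins on the same chromosome replace them with more distant ones, until a chain is positively selected. Bases without template, called N bases, can be added at the junction, and the loop spanning it, CDR3, contacts the peptide that the receptor recognises.

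The cells came from MC38 tumours, a mouse colon adenocarcinoma line, in wild type C57BL/6 mice, and each group was 1 library of alpha and beta chain contigs with a matched expression library. In experiment 1 a library of mice given buffer was set beside a library of mice given 10 mg/kg of rhIL-7-hyFc, a long-acting interleukin 7, under the skin, with tumours taken 7 days later and CD8 T cells enriched by magnetic positive selection. In experiment 2 all mice had 1.25 mg/kg of rhIL-7-hyFc under the skin, and the combination library came from mice also given an intravenous T cell engager (TCE) against PD-L1 and CD3ε, 3 days after rhIL-7-hyFc. Those tumours were taken 24 h after the last treatment, and viable CD45+TCRb+CD8a+ cells were sorted. The labels do not state how many mice were pooled in a library. Since each group is 1 library, differences between groups have no replicate check and were not tested, and the 95% intervals below cover counting error only. The libraries are called buffer, 10 mg/kg, 1.25 mg/kg and combination, and values in series of 4 follow that order.

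The sequences that the results return to are the CDR3s of 7 alpha chains, from the first cysteine codon to the last codon of the loop. Bases counted as N bases are in capitals. The first 4 had the most different beta chains, and TRAV14D-2 with TRAJ22 held no N base. The TRAV9D-3 and TRAV7N-6 chains had the most cells in the buffer and the combination library. The last is the most frequent join of TRAV1 with TRAJ33, the pair of mucosal-associated invariant T (MAIT) cells.
TRAV14D-2 with TRAJ22: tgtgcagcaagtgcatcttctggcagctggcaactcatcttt
TRAV7D-2 with TRAJ7: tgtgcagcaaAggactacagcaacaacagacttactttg
TRAV3-1 with TRAJ22: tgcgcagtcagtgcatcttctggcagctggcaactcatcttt
TRAV12D-3 with TRAJ23: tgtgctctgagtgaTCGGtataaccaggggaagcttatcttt
TRAV9D-3 with TRAJ7: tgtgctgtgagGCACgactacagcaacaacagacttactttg
TRAV7N-6 with TRAJ30: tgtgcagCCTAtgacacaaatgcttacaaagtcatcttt
TRAV1 with TRAJ33: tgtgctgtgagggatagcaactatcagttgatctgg
The germline end that TRAJ7 brings into CDR3 is shown for comparison, since both TRAJ7 chains above carry nearly all of it.
TRAJ7 germline end: ggactacagcaacaacagacttactttg

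Cells with an alpha chain numbered 3097, 5373, 6739 and 7834. A clonotype is a distinct nucleotide CDR3 of the alpha chain within a library, and there were 1409, 5339, 4127 and 4303. Alpha contigs had a median of 10, 8, 6 and 7 unique molecular identifiers (UMIs). Clonotypes of 1 cell made up 83.0%, 92.9%, 88.2% and 88.3%, and 86, 75, 168 and 170 clonotypes had 5 or more cells. Between 96.0% and 99.7% of the cells were also in the expression libraries. There Cd8a stood at 763 to 1240 CPM (UMI counts scaled to a fixed library total) and Cd4 at 0.548 to 1.83 CPM, and all 7 T cell markers were detected. The 7 macrophage markers summed to 276, 152, 1935 and 325 CPM, highest in the 1.25 mg/kg library, and 0 of the 7 were at 0. Their part in the results below was not tested. Libraries shared 29 to 76 cell barcodes per pair, and 0 of these carried the same alpha chain in both libraries.

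Use of TRAV genes was broad and similar across the libraries. Of the 89 TRAV genes 87 were found in all 4 libraries; TRAV7-2 and TRAV18 were not. No TRAV pseudogene was in a productive contig, 0 of 20. TRAV12-2 (chr14:53616315-53616914, plus strand) was among the most used, at 5.25%, 3.86%, 3.90% and 5.16% of clonotypes. It ranked first in the buffer and combination libraries. TRAV13-1 (chr14:53545014-53545525) stood at 4.26%, 4.23%, 4.46% and 3.95%, which differ by less than their counting intervals. TRAV6-6 followed at 3.62%, 4.01%, 3.80% and 4.16%. Among V genes far from the J cluster, TRAV9D-3 (chr14:52920443-52921112) had 4.12%, 3.52%, 2.86% and 2.90%. TRAV12D-3 had 3.05%, 4.57%, 4.12% and 3.70%, and TRAV3D-3 had 3.76%, 3.33%, 3.54% and 3.83%. By called name, the middle of the locus was led by TRAV16N at 2.98%, 4.38%, 3.25% and 2.95%. The positions of TRAV9D-3, TRAV12D-3 and TRAV3D-3 also rest on the called name. Each has an N copy that is identical over the last 280 bases of its annotated transcript. By family number, TRAV12 genes held 13.2%, 14%, 13.1% and 14.2% of clonotypes, and TRAV6 genes 11.3%, 12.8%, 13.5% and 13.6%. Across the 89 genes, the clonotype shares of the libraries of an experiment had a Spearman rho of 0.94 and 0.96. The shares of cells had 0.78 and 0.76.

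**Figure D1:**
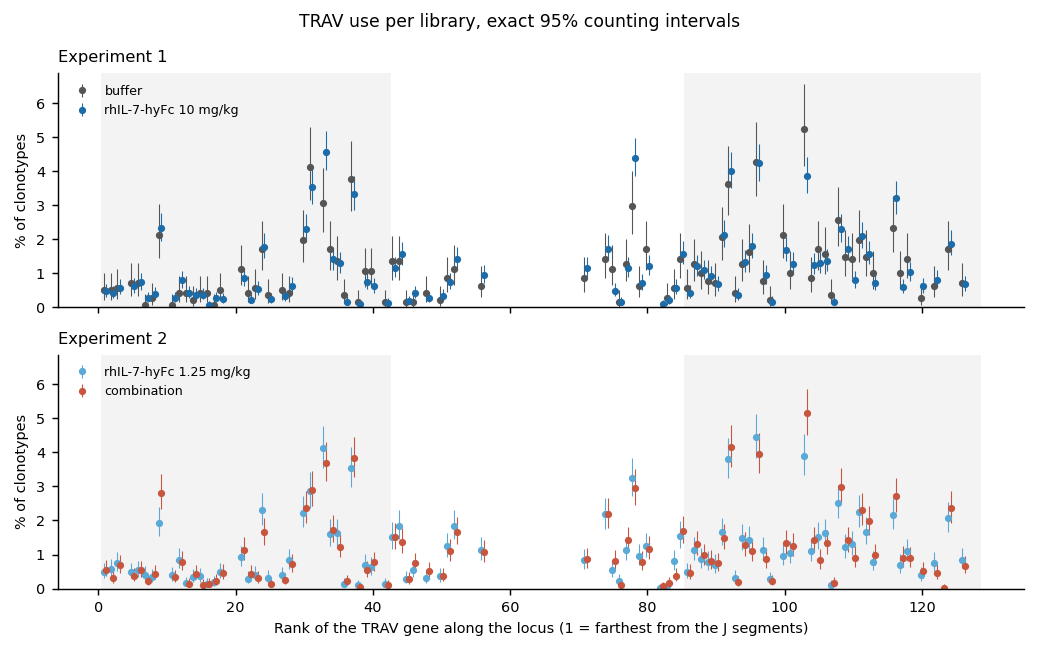
Share of clonotypes (%) that used each TRAV gene, by the rank of the gene along the locus, with exact 95% counting intervals. Shading marks the V groups farthest from and nearest to the J segments. TRAV12-2 reaches 5.25% in the buffer library, and no gene at ranks 57 to 70 was named in a productive contig of any library.

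Mouse TRAV genes lie partly in a duplicated block whose copies are called D and N, and the copies limit which gene can be named. Of 19 annotated functional TRAV genes that no productive contig was assigned to, 17 were identical to a used gene over the last 280 bases of their annotated transcripts. Most were N copies of D genes. A run of 14 genes without productive contigs, 3 of them pseudogenes, lay at ranks 57 to 70, all of them N copies. Of the 89 used genes, 31 had another used gene at least 98% identical to them. The matched expression libraries give a second readout of the V call, from the same barcodes. In cells with 1 alpha chain, a UMI of the called V gene was found in 58.5%, 67.4%, 57.7% and 52.9% of cells, against 0.745%, 0.585%, 0.371% and 0.359% for V genes the cells were not called to carry. For the 17 used genes with an identical annotated copy the median over genes was 0% and the highest value 22.2%. For the other 72 genes the median was 96.9%, with 58 genes over 75% and 9 under 25%. Copies were compared base by base from the transcript ends, without gaps. A copy whose annotated end differs is therefore missed, and some of the 72 may have one. Genes the results return to are in both groups. TRAV12-2 had its own UMI in 95.8% to 100% of cells per library and TRAV19 in 96.1% to 100%. TRAV9D-3 and TRAV3D-3, which have identical copies, had it in 0.610% and 0.593% of cells over all libraries, and TRAV6-6 and TRAV12D-3 in 0%. Among the 9 were TRAV7D-2, at 5.91% of 982 cells, TRAV7N-6, at 0.151% of 663 cells, and TRAV11, at 0 of 14 cells. For most cells called with TRAV9D-3, TRAV3D-3, TRAV6-6, TRAV12D-3, TRAV7D-2, TRAV7N-6 or TRAV11, the V call thus rests on the contig alone.

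All 43 TRAJ segments were used in all 4 libraries. TRAJ22 (chr14:54197248-54197307) had the most clonotypes in 3 libraries and shared the first rank with TRAJ7 in the buffer library, at 5.82%, 6.11%, 6.66% and 6.74%. TRAJ30 stood at 4.68%, 4.93%, 4.82% and 4.44%, TRAJ26 at 4.76%, 4.57%, 5.11% and 3.93%, and TRAJ49 at 4.05%, 4.14%, 4.22% and 4.53%. TRAJ23 was at 4.05%, 3.95%, 3.93% and 3.95%. TRAJ7 (chr14:54211470-54211528), near the distal end of the J cluster, had 5.82%, 2.66%, 3.88% and 4.49% of clonotypes. Counted by cells the order changed. TRAJ7 ranked first in all 4 libraries, with 22.3%, 8.38%, 21.1% and 17.3% of cells. Without the TRAJ7 clonotype of the most cells in each library it still held 17.2%, 7.15%, 17.3% and 16.2%. TRAJ22 held 4.10%, 8.0%, 6.89% and 7.17% of cells. TRAJ30 reached 13.4% of cells in the combination library, where a clonotype of 554 cells joined it to TRAV7N-6, against 4.88%, 5.73% and 4.64% in the others. The same clonotype set the cell share of TRAV7N-6, which was 2.13%, 0.540%, 0.608% and 7.66%.

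**Figure D2:**
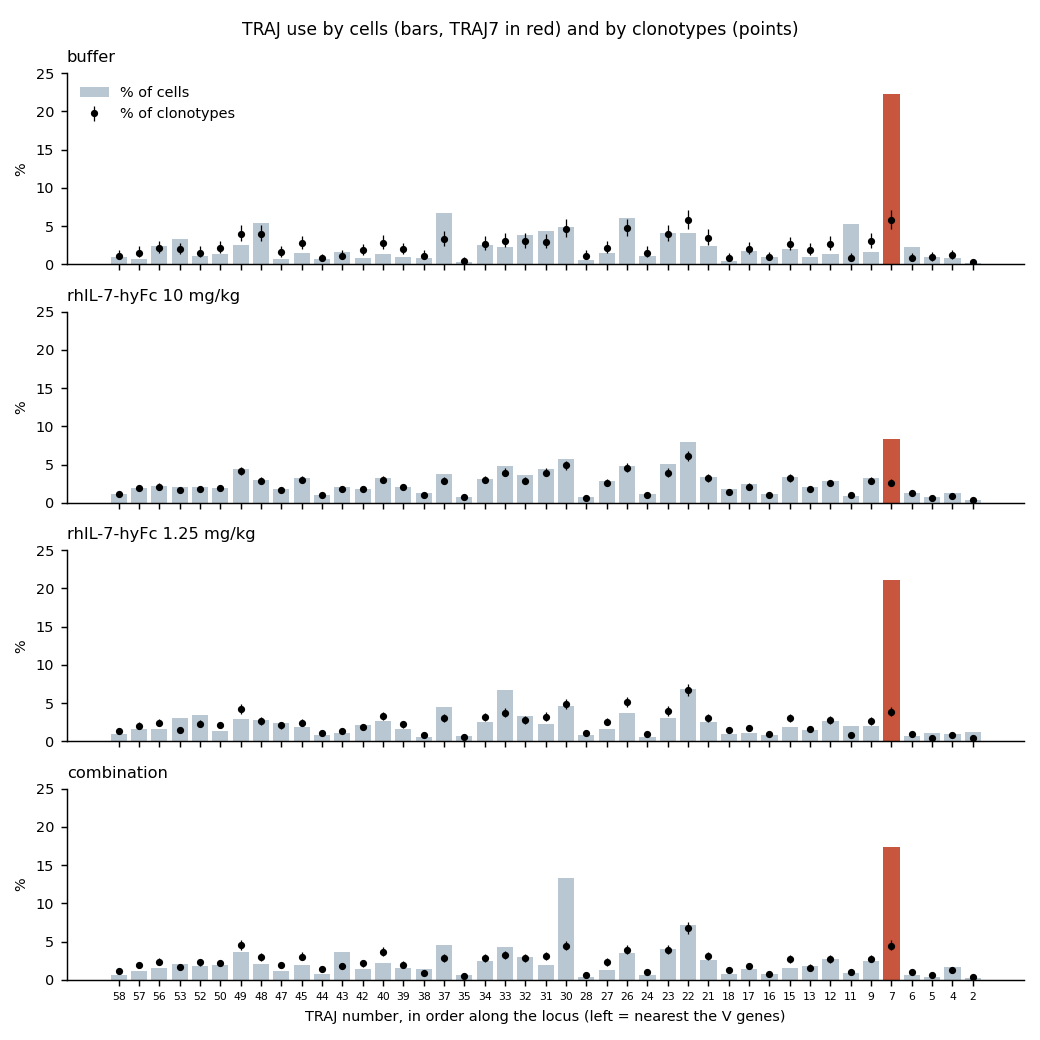
Share of cells (bars, TRAJ7 in red) and share of clonotypes (points, exact 95% counting intervals) for each TRAJ, in locus order, per library. The TRAJ7 bar reaches 22.3% of cells in the buffer library while its point stands at 5.82% of clonotypes.

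In experiment 1 segment use was compared between the buffer and 10 mg/kg libraries over clonotypes, for segments with at least 20 in both libraries together. Of 73 TRAV genes 12 differed by at least 1.5-fold (16.4%), 5 of them higher at 10 mg/kg (6.85%) and 7 higher with buffer (9.59%). With the V genes merged into 19 families only 1 did. Most of the 12 rested on few clonotypes. TRAV14D-3-DV8 had 0.142% and 0.412% of clonotypes (2 and 22), a ratio of 2.90 with an interval of 0.714 to 25.5. TRAV3-4 had 0.284% and 0.618%, 2.18-fold higher (0.774 to 8.46). TRAV7D-3 was 1.85-fold (0.781 to 5.32) and TRAV7D-4 1.67-fold (0.492 to 8.82) higher. In the other direction TRAV7N-6 had 1.14% and 0.487%, a ratio of buffer over 10 mg/kg of 2.33 (1.17 to 4.51). TRAV4-4-DV10 had 1.42% and 0.787%, a ratio of 1.80 (1.00 to 3.14). TRAV10D and TRAV5D-4 had ratios of 2.04 (0.689 to 5.50) and 1.72 (0.869 to 3.26). The interval included 1 for 68 of the 73 genes. Some much used genes under 1.5-fold had intervals apart from 1. TRAV12D-3 was 1.498-fold (1.08 to 2.12) and TRAV16N 1.47-fold (1.06 to 2.09) higher at 10 mg/kg, and TRAV12-2 1.36-fold (1.03 to 1.78) higher with buffer.

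Of 43 TRAJ segments 6 differed by at least 1.5-fold in experiment 1 (14%), 4 of them higher at 10 mg/kg (9.3%) and 2 higher with buffer (4.65%). TRAJ7 was the segment farthest from equal use, at 82 of 1409 and 142 of 5339 clonotypes, 2.19-fold higher with buffer (1.65 to 2.89). TRAJ28 was 1.64-fold higher with buffer (0.851 to 3.02). TRAJ18, TRAJ43, TRAJ35 and TRAJ6 were 1.74-fold (0.941 to 3.50), 1.63-fold (0.957 to 2.97), 1.62-fold (0.723 to 4.27) and 1.56-fold (0.841 to 3.16) higher at 10 mg/kg. TRAJ7 was also the lower at 10 mg/kg among small clonotypes. When a clonotype was a pair of alpha and beta CDR3 in a cell with 1 of each, TRAJ7 had 5.43% and 2.32% of clonotypes of 1 cell. The beta chain gave 0 of 20 TRBV and 0 of 12 TRBJ segments past 1.5-fold in the same comparison. Fewer segments share the beta clonotypes, so each holds more of them and its share varies less by counting. The alpha and beta counts are thus not on one scale, here or in experiment 2.

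In experiment 2, 11 of 77 TRAV genes differed by at least 1.5-fold between the 1.25 mg/kg and combination libraries (14.3%), 3 of them higher in the combination (3.9%) and 8 higher at 1.25 mg/kg (10.4%). With V genes merged by family 3 of 19 did. TRAV8D-1 had 15 and 5 clonotypes, 3.13-fold lower in the combination (1.08 to 11.0). TRAV6-3 was 2.15-fold lower (1.15 to 4.18), TRAV2 1.92-fold lower (0.942 to 4.12) and TRAV13-2 1.82-fold lower (1.19 to 2.83). TRAV7N-4, TRAV7N-6 and TRAV12D-1 were 1.62-fold (0.782 to 3.51), 1.53-fold (0.870 to 2.73) and 1.52-fold (0.700 to 3.43) higher. Of 43 TRAJ segments 2 differed by at least 1.5-fold (4.65%), 1 in each direction (2.33% each). TRAJ4 was 1.5-fold higher (0.979 to 2.34) and TRAJ28 1.65-fold lower in the combination (1.02 to 2.73). TRAJ7 had 3.88% and 4.49% of clonotypes, a ratio of 1.16 (0.933 to 1.44). Of the beta segments 1 of 22 TRBV (4.55%) and 0 of 12 TRBJ differed as much, and the TRBV gene was higher at 1.25 mg/kg (4.55%).

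V and J segments were joined by position. V genes were put into 3 groups by rank along the locus, far (ranks 1 to 42), middle (43 to 85) and near (86 to 128), and J segments into those nearest the V cluster (TRAJ41 and above), the middle, and those farthest from it (TRAJ20 and below). Among clonotypes with a near V, 42.9%, 44.3%, 44.0% and 46.4% had a J from TRAJ41 up. With a far V it was 10.5%, 10.9%, 11.9% and 11.9%. The reverse held for TRAJ20 and below, at 7.17%, 7.82%, 7.50% and 7.39% with a near V and 42.8%, 36%, 35.4% and 38.9% with a far V. Spearman's rho between V rank and J rank over clonotypes was −0.53, −0.49, −0.48 and −0.51. The overall shares were close between libraries. Near V genes held 49.5%, 48.2%, 46.5% and 48.1% of clonotypes, and TRAJ20 and below 24.1%, 22.1%, 21.7% and 22.7%. Within each experiment the counting intervals of these shares overlapped.

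**Figure D3:**
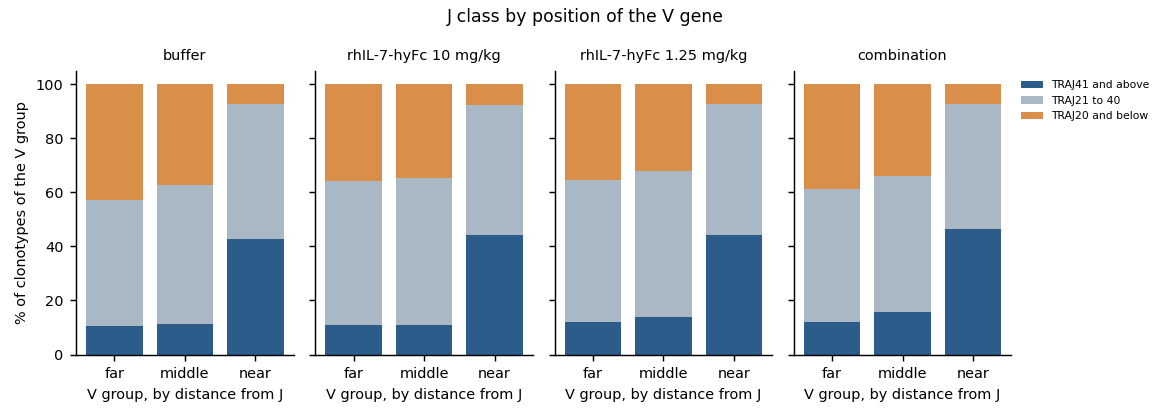
Share of clonotypes (%) with each J class, for V genes far from, in the middle and near the J segments, per library. In the 4 libraries 42.9% to 46.4% of clonotypes with a near V have a J from TRAJ41 up, against 10.5% to 11.9% with a far V.

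Because copies of the duplicated block cannot be placed reliably, the same shares were taken over V genes outside it. The 5 downstream genes TRAV3-4, TRAV17, TRAV18, TRAV19 and TRAV21-DV12 had a J from TRAJ41 up in 83.0% of 600 clonotypes over all libraries (79.8% to 85.9%), and TRAJ20 or below in 3 of them. Per library the first share was 85.1%, 81.6%, 83.2% and 83.9%. The 7 upstream genes, from TRAV1 on, had 5.81% of 516 clonotypes with a J from TRAJ41 up (3.96% to 8.20%) and 30.6% with TRAJ20 or below. TRAV19 (chr14:53845234-53845827) showed the pattern in every library, with 87.5%, 84.0%, 88.2% and 90.2% of its clonotypes on TRAJ41 and above.

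Of 3827 possible V to J pairs 2705 (70.7%) were seen in at least 1 library. The pair with the most clonotypes was TRAV19 with TRAJ56 (chr14:54159263-54159325), at 68 clonotypes and 75 cells, followed by TRAV9D-3 with TRAJ7 at 61 clonotypes and 515 cells, and TRAV19 with TRAJ57 at 52 clonotypes and 57 cells. TRAV19 with TRAJ56 was 9.92, 8.74 and 9.51 times as frequent as the product of its segment shares in the 10 mg/kg, 1.25 mg/kg and combination libraries. TRAV12D-3 with TRAJ31 led in the 10 mg/kg library with 25 clonotypes, 2.58 times the product. Buffer was led by TRAV7D-2 with TRAJ7, at 11 clonotypes and 138 cells, 6.30 times the product. Next came TRAV9D-3 with TRAJ7 at 10 clonotypes and 172 cells, 2.96 times, and TRAV8N-2 with TRAJ7 at 9 clonotypes, 8.59 times.

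Cells with 2 productive alpha chains made up 13.1%, 19.3%, 14.4% and 12.1%, and a cell's chains normally come from its separate copies of chromosome 14. The J segments of the 2 chains lay a median of 8, 8, 7 and 7 J positions apart, against 15, 14, 14 and 14 for chains taken from different cells. They were within 10 positions in 62.2%, 63.9%, 62.5% and 68.9% of distinct pairs, against 36.6%, 39.3%, 38.3% and 39.1% between cells. The non-productive alpha contigs, which only the tables of experiment 1 list, 1466 and 2305 of full length, repeated this. Their J lay a median of 7 positions from that of the productive chain of the same cell in both libraries, against 15 and 14 between cells. Rag1 and Rag2, which encode the recombinase that cuts the segments, had 0 UMIs in the cells of all 4 libraries.

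CDR3 length hardly varied between libraries. Its median was 42 bases, or 14 residues, in each, and its mean 41.1 ± 4.18, 41.2 ± 4.27, 41.1 ± 4.30 and 41.1 ± 4.18 bases (SD over clonotypes). A CDR3 of at least 14 residues was found in 59.0%, 58.7%, 58.5% and 59.7% of clonotypes. The mean length differed with the J segment and also with the V gene. Over the 43 TRAJ, the germline bases each brings into CDR3 and the mean CDR3 length of its clonotypes had a Spearman rho of 0.91, as a description. Of the TRAJ, TRAJ31 gave the shortest mean, 37.1 ± 3.72 bases (SD, 519 clonotypes), and TRAJ2 the longest, 47.3 ± 3.57 (61 clonotypes). Among TRAV genes, TRAV16 had a mean of 45.5 ± 3.85 bases (410 clonotypes) and TRAV8N-2 38.4 ± 3.73 (188 clonotypes). Bases that match neither germline end were counted as N bases, so an N base that happens to match is missed. Unmatched bases of another origin would be counted as N bases too. There was a mean of 2.83 ± 2.14, 2.88 ± 2.07, 2.84 ± 2.08 and 2.87 ± 2.10 N bases per clonotype, and 14.7%, 12.6%, 13.5% and 13.8% of clonotypes had none.

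Alpha CDR3s that recurred more often held no N base. Of 14134 different alpha CDR3s over all libraries 13265 were in 1 library, 721 in 2, 121 in 3 and 27 in all 4. For comparison, 98.5% of beta CDR3s were in 1 library. The share with no N base was 10.0% among alpha CDR3s of 1 library (9.51% to 10.5%), 34.4% in 2 libraries (30.9% to 38.0%), 49.6% in 3 (40.4% to 58.8%) and 48.1% in 4 (28.7% to 68.1%). A CDR3 of several libraries, where its V call could differ, was given the lowest N base count among them. This can raise the share for CDR3s of more libraries. Within cells of 1 alpha and 1 beta chain, 8909 of 9639 alpha CDR3s came with a single beta CDR3. The share without N bases was 10.5% there, 26.7% of 532 with 2 beta CDR3s, 46.4% of 151 with 3 to 4 and 57.4% of 47 with 5 or more (42.2% to 71.7%). Beta CDR3s were counted over all libraries together. Of the alpha CDR3s in these groups, 0.0224%, 61.7%, 83.4% and 95.7% were in 2 or more libraries. The comparisons by libraries and by beta CDR3s are therefore not independent. The TRAV14D-2 with TRAJ22 chain printed above had 55 different beta CDR3s in 58 such cells, of 14 TRBV genes. It was in all 4 libraries, in 4, 31, 17 and 32 cells, and 7 different TRAV14 names were given to it. TRAV3-1 with TRAJ22 had 16 beta CDR3s in 16 cells. TRAV12D-3 with TRAJ23 had 15 in 15 cells, with 11 TRBV genes, although 4 of its bases match neither germline end.

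**Figure D4:**
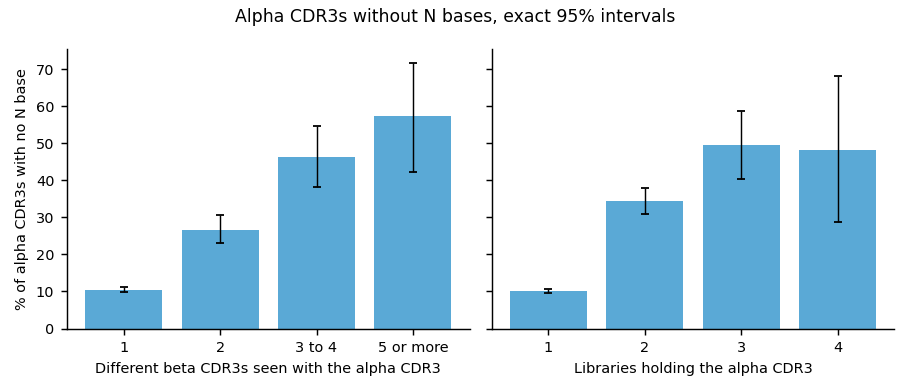
Share of alpha CDR3s (%) with no N base, by the number of different beta CDR3s seen with them in cells of 1 alpha and 1 beta chain (left) and by the number of libraries that held them (right), with exact 95% counting intervals. The share is 10.5% with 1 beta CDR3 and 57.4% with 5 or more. Beta CDR3s were counted over all libraries together, so the panels are not independent. On the right, a CDR3 of several libraries has the lowest N base count among them.

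Large clonotypes had a higher share of J segments of the far end than small ones in all 4 libraries, and without TRAJ7 these shares were closer. Among clonotypes of 1 cell, TRAJ20 and below were used by 23.1%, 21.6%, 20.4% and 21.1%. Among clonotypes of 5 or more cells it was 37.2%, 49.3%, 41.1% and 44.7%. Without TRAJ7 the shares were 19.9%, 20.1%, 18.7% and 19.2% in clonotypes of 1 cell and 19.4%, 25.5%, 16.1% and 19.7% in those of 5 or more. The J segments nearest the V cluster, TRAJ41 and above, had lower shares in large clonotypes also without TRAJ7, at 23.9%, 11.8%, 24.6% and 19.7% against 28.7%, 28.3%, 29% and 31.1% in clonotypes of 1 cell. The intervals were apart at 10 mg/kg (4.44% to 23.9% against 27.1% to 29.6%) and in the combination (12.9% to 28.02% against 29.6% to 32.6%). With pairs of alpha and beta CDR3 as clonotypes the same shares were 25%, 14.3%, 20.3% and 29.9% against 27.6%, 28.3%, 28.9% and 31.6%, and the intervals overlapped in all 4 libraries. Near V genes were in 46.5%, 30.7%, 39.3% and 35.9% of clonotypes of 5 or more cells and in 50.1%, 48.4%, 47.3% and 48.9% of those of 1 cell. Without TRAJ7 it was 58.2%, 39.2%, 53.4% and 48.7% against 51.8%, 49.0%, 47.9% and 49.7%, so large clonotypes were above in 2 libraries and below in the other 2. TRAJ7 was used by 19 of 86, 24 of 75, 50 of 168 and 53 of 170 clonotypes of 5 or more cells, that is 22.1%, 32%, 29.8% and 31.2%. Of its own clonotypes 23.2%, 16.9%, 31.3% and 27.5% had 5 or more cells, against 5.05%, 0.981%, 2.97% and 2.85% of clonotypes with any other J. No other TRAJ with at least 20 clonotypes was as high in any library. The next were TRAJ37 with buffer at 17.0% (8 of 47, 7.65% to 30.8%, which overlaps the interval of TRAJ7), TRAJ4 at 6.67%, TRAJ33 at 11.8% and TRAJ4 at 13.8%.

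**Figure D5:**
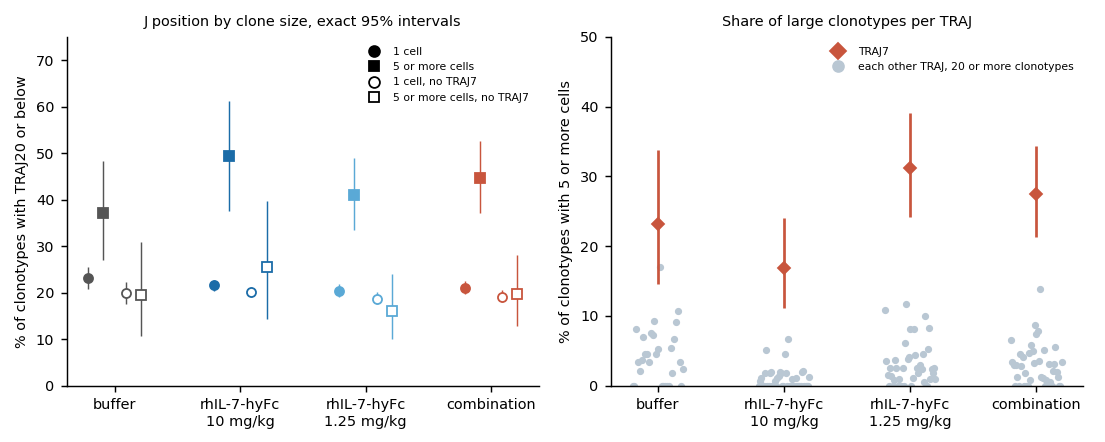
Left, share of clonotypes (%) with TRAJ20 or below, for clonotypes of 1 cell and of 5 or more cells, with all J (filled) and without TRAJ7 (open). Right, share of each TRAJ's clonotypes that had 5 or more cells (%), with TRAJ7 as diamonds between 16.9% and 31.3%; bars are exact 95% counting intervals.

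An alpha CDR3 can belong to several clones, so the count was repeated with pairs of alpha and beta CDR3 in cells with 1 of each. TRAJ7 then had 25.9%, 50%, 37.3% and 35.6% of clonotypes of 5 or more cells (14 of 54, 14 of 28, 38 of 102 and 37 of 104), and 5.43%, 2.32%, 3.18% and 3.49% of clonotypes of 1 cell. Of the 1-cell TRAJ7 pairs, 41 of 48, 75 of 83, 63 of 88 and 73 of 102 had no chain that was the same as, or 1 base away from, a chain of a large clonotype. With another J the share was higher in each library, at 813 of 836, 3490 of 3497, 2645 of 2676 and 2793 of 2817. Among 1-cell pairs with this property TRAJ7 had 4.80%, 2.10%, 2.33% and 2.55%.

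The large TRAJ7 clonotypes used many V genes. In the 4 libraries they carried 12, 16, 24 and 24 different TRAV. Of 146 in all, 24 had TRAV7D-2 (chr14:52683964-52684472), 20 had TRAV9D-3 and 10 had TRAV3D-3. Among all 577 TRAJ7 clonotypes of any size, 49, 61 and 45 had these V genes. A CDR3 found in several libraries was counted in each. Both TRAV7D-2 and TRAV9D-3 had large TRAJ7 clonotypes in all 4 libraries. They mostly kept the whole end of the J segment. TRAJ7 brings 28 germline bases into CDR3, and at least 27 of them were kept in 94.7%, 87.5%, 98% and 98.1% of the large TRAJ7 clonotypes, against 67.4%, 60.4%, 60.5% and 70% of those of 1 cell. The intervals overlapped in experiment 1, at 74.0% to 99.9% against 52.0% to 80.5% with buffer and 67.6% to 97.3% against 49.6% to 70.5% at 10 mg/kg. They were apart in experiment 2, at 89.4% to 99.95% against 48.6% to 71.6% and 89.9% to 99.95% against 59.4% to 79.2%. Their mean CDR3 length was 42 ± 2, 41.5 ± 2.28, 41.8 ± 2.14 and 41.8 ± 1.90 bases (SD over clonotypes), and 40.7 ± 3.08, 40.8 ± 2.93, 41 ± 2.96 and 40.6 ± 3.28 in TRAJ7 clonotypes of 1 cell. Mean numbers of N bases were 3.53, 2.46, 2.76 and 2.96 against 2.63, 2.87, 2.83 and 2.98. The greater length was not seen with TRAJ7 alone. Over all J, mean length was 42.1, 41.88, 42.18 and 42.02 bases in large clonotypes and 41.05, 41.15, 41.055 and 41.05 in those of 1 cell. Without TRAJ7, 73.13%, 60.78%, 59.32% and 64.96% of large clonotypes had at least 14 residues. In those of 1 cell it was 58.01%, 58.44%, 58.03% and 59.1%, and the intervals overlapped in all 4 libraries.

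The TRAJ7 chain with the most beta partners, printed above with TRAV7D-2, has 1 N base and the whole germline end of TRAJ7. It was found in 58, 66, 254 and 92 cells and was the clonotype with the most cells in the 10 mg/kg and the 1.25 mg/kg library. The same 39 bases were assembled with different V genes. With buffer all 58 cells had TRAV7D-2. At 10 mg/kg 39 cells had TRAV14D-3-DV8 and 27 had TRAV10N. At 1.25 mg/kg 228 had TRAV7D-2, 23 TRAV10N and 3 TRAV14D-3-DV8, and with the combination 44 had TRAV7D-2 and 42 TRAV10N, with 6 more on TRAV10 and TRAV10D. Clonotypes were defined by CDR3 alone, so this one holds contigs of several V genes. In 414 cells with 1 alpha and 1 beta chain it came with 19 beta CDR3s, 15 of them of TRBV5, and 0 of the 19 were in more than 1 library. Of the 19, 13 had 5 or more cells, and 2 were 1 base apart from another.

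TRBV5, a beta chain V gene, was also frequent beside TRAJ7 in general. Over all paired clonotypes it had 18.7%, 12.3%, 22.5% and 23.3% of those with TRAJ7, against 6.13%, 5.29%, 5.04% and 5.34% of those with another J. Among TRAJ7 pairs of 1 cell it had 12.5%, 7.23%, 7.95% and 24.5%. In clonotypes of 5 or more cells TRBV5 had 3 of 14, 5 of 14, 17 of 38 and 10 of 37 with TRAJ7, and 6 of 40, 3 of 14, 2 of 64 and 4 of 67 with another J. The intervals overlap in experiment 1. In experiment 2 they were 28.6% to 61.7% with TRAJ7 against 0.381% to 10.8%, and 13.8% to 44.1% against 1.65% to 14.6%. Among 1-cell pairs free of chains of large clonotypes, TRBV5 stood at 12.2%, 6.67%, 4.76% and 12.3% with TRAJ7 and at 5.29%, 5.27%, 4.95% and 5.37% with another J. The counting interval for TRAJ7 held the other value in all libraries but the combination (5.80% to 22.1%).

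Pdcd1, which encodes the inhibitory receptor PD-1 and is induced by antigen, was compared between TRAJ7 and other clonotypes with each clonotype counted once. In clonotypes of 5 or more cells the mean was 635, 660, 743 and 979 CPM with TRAJ7 and 679, 528, 647 and 938 CPM with another J. Among 1-cell clonotypes whose cell carried no chain of a large clonotype or 1 base from it, the mean was 342, 44.7, 109 and 342 CPM with TRAJ7 (41, 79, 58 and 69 clonotypes) and 160, 21.2, 56.0 and 128 CPM with another J. A Pdcd1 UMI was found in 63.4%, 10.1%, 15.5% and 43.5% of the first and in 37.8%, 5.98%, 11.8% and 26.0% of the second. The TRAJ7 value was the higher in all 4 libraries, and the counting intervals were apart in the buffer and combination libraries (46.9% to 77.9% and 31.6% to 56.0% for TRAJ7). Cells of the TRAJ7 group had medians of 6883, 9974, 5021 and 5725 UMIs and those of the others 7244, 9448, 5296.5 and 6524. Other genes of T cell state, read in the same cells, did not go one way across libraries. Havcr2, the gene of the inhibitory receptor TIM-3, had a UMI in 31.7%, 6.33%, 5.17% and 11.6% with TRAJ7 and in 10.3%, 1.30%, 6.37% and 14.1% with another J. It was higher with TRAJ7 with intervals apart in the buffer library (18.1% to 48.1% against 8.48% to 12.3%). The same held at 10 mg/kg (2.09% to 14.2% against 0.994% to 1.66%). In experiment 2 it was lower with TRAJ7 and the intervals overlapped. Tox, a transcription factor of chronic stimulation, had 31.7%, 8.86%, 10.3% and 15.9% against 21.3%, 11.4%, 9.05% and 5.89%. Its intervals were apart only in the combination, where it was higher with TRAJ7 (8.24% to 26.7% against 5.14% to 6.72%). Tcf7, which marks less differentiated T cells, had 36.6%, 63.3%, 69.0% and 39.1% against 54.4%, 71.6%, 65.0% and 38.8%. Gzmb, which encodes a cytotoxic granule protease, had 95.1%, 86.1%, 72.4% and 68.1% against 92.7%, 86.4%, 69.2% and 83.6%, and was lower with TRAJ7 in the combination with intervals apart (55.8% to 78.8% against 82.3% to 84.8%). Mki67, a marker of dividing cells, had 17.1%, 8.86%, 12.1% and 13.0% against 11.0%, 9.0%, 8.55% and 15.8%.

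The pairs of invariant T cells were rare. TRAV11 with TRAJ18 (chr14:54200777-54200842), the alpha join of invariant natural killer T cells, was in 1, 5, 2 and 2 cells. TRAV1 with TRAJ33, the join of MAIT cells, which recognise bacterial metabolites on MR1, was in 0, 11, 8 and 2 cells, and 0 of 3097 allows up to 0.0969% of cells by the limit of 3 counts. The MAIT chain printed above accounted for 13 of these 21 cells and held no N base. Zbtb16, which encodes the transcription factor PLZF of innate-like T cells, had a UMI in 8 of the 21 cells (38.1%, 18.1% to 61.6%) and in 0.167% of all other alpha chain cells. The cells of the MAIT pair were no deeper, with medians of 6771, 3908 and 3318 UMIs in the 3 libraries that held them against 9662.5, 6062.5 and 6403. Cd8a had a UMI in 14 of the 21 and in 94.7% of other cells. Cd8b1 had one in 9 of the 21 (42.9%, 21.8% to 66.0%) and in 95.2% of other cells. For TRAV11 with TRAJ18, Zbtb16 had a UMI in 1 of 10 cells.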

How the data were processed

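The deposited contig tables list assembled TCR contigs per barcode with counts of reads and UMIs per contig and contig length in bases, as the authors deposited them. The submitters' processing notes name Cell Ranger, with no version given in the sources used here for these tables. The tables of experiment 1 also list non-productive contigs, and those of experiment 2 do not. The deposited expression matrices hold raw UMI counts, made with Cell Ranger 4.0.0 (experiment 1) and 6.1.2 (experiment 2) per the file headers. The submitters' processing notes name GRCm38. Experiments differ in dose, timing, isolation and version, so groups were compared within an experiment only.

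Productive TRA contigs with a TRAV and a TRAJ name were used. A clonotype was a distinct alpha CDR3 nucleotide sequence in a library, with the V and J of most of its cells. Segment order came from GENCODE M21. Germline ends were taken from its transcripts, and the N base count was tested on simulated data, as was the ratio interval. Shares have exact Clopper-Pearson intervals and ratios exact conditional binomial intervals, at 95%. CPM were computed from these UMI counts. No doublet caller was run. Correlations are over segments or clonotypes of the same libraries and depth, and have no p-value. Python 3.11.15, pandas 2.3.3 and SciPy 1.17.1 were used.

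Named segments follow a rule: per experiment the 6 most used V and J segments and the 4 highest and 4 lowest ratios among those with at least 20 clonotypes, per library the leading pairs, the invariant pairs, and the CDR3s with the most beta partners or cells. TRAJ7, its partners, the T cell state genes beside it and the V genes outside the duplicated block were followed after their values were seen. The segments and lists were chosen with earlier results of these data known. Alternatives changed the barcodes used, chains per cell, contig depth, the definition of a clonotype, its weight, the fold and the smallest number of clonotypes.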

Additional observations from a re-analysis of the deposited data

How the results depend on the processing

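No paired analysis was possible because each group is 1 library. For 24 results 170 alternative values were computed, and 132 stayed within their main counting interval or within 1.5 times the main count. Restricting to barcodes that passed expression filters, to contigs of at least 3 UMIs or to clonotypes by V, J and CDR3 moved 0. Counts of TRAV past 1.5-fold in experiment 1 (12) became 23 with paired alpha and beta clonotypes, 50 by cells, 4 at 2-fold, 19 and 5 with at least 10 and 40 clonotypes, and 1 of 19 by family. In experiment 2 (11) they became 42 by cells, 2 at 2-fold, 4 with at least 40 clonotypes and 3 of 19 by family. TRAJ counts in experiment 1 (6) became 10 in cells with 1 alpha and 1 beta chain, 11 with paired clonotypes, 25 by cells and 1 at 2-fold, and in experiment 2 (2) 12 by cells and 0 at 2-fold. The cause of these shifts was not tested. With each cell counted once per alpha chain, the share of TRAJ20 and below was 36.5%, 25.5%, 33.4% and 29.2%, and without TRAJ7 clonotypes (added after the data were seen) 19.4%, 20.01%, 18.5% and 19.1%. By cells, near V genes had 45.0%, 41.3% and 42.6% in the last 3 libraries. TRAJ41 and above among near V genes had 37.1% with buffer and 39.2% with the combination by cells, and 48.5% with the combination in cells with 1 alpha and 1 beta chain. Over the downstream V genes alone, also added later, it was 85.1%, 81.6%, 83.2% and 83.9%. CDR3s of at least 14 residues had 70.1% with buffer and 53.8% with the combination by cells. The TRAJ7 share of large clonotypes at 10 mg/kg (32%) was 50% with paired clonotypes and 21.4% at 3 or more cells; both were added later. Depth limits the TRAV ratios of experiment 1, where the buffer library has 1409 clonotypes over 87 TRAV genes.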
